A study of Mus musculus with 8 samples.

Results

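Endothelial cells line the blood vessels of the pancreas, and 10 genes of these cells and of their signalling were followed here across lean and obese mice. The genes were chosen by symbol: Pecam1, Cdh5, Kdr, Flt1, Tek, Tie1, Eng, Vwf, Emcn and Plvap. All 10 were found among the 15047 gene symbols of the deposited expression values. The RNA-Seq data come from whole pancreas of 8 male C57BL/6 mice. In the lean group, 3 wild-type mice received a low-fat diet (LFD). In diet-induced obesity, 3 wild-type mice were fed a high-fat diet (HFD) that took 60% of its calories from fat. In the genetic model, 2 leptin-deficient C57BL/6J ob/ob mice were kept on standard chow, so that their genotype and their chow cannot be told apart as sources of a difference from LFD. All 3 groups began their chow at an age of 4 weeks and were kept on it for 10 weeks. According to the study's text, mice of all groups carried an orthotopic transplant of mouse pancreatic tumor organoids (mT). The labels do not mention the transplant, and graft and host RNA cannot be told apart in these values.

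Endothelial cells are held together by the adhesion proteins PECAM1 and VE-cadherin, the product of Cdh5. Vascular endothelial growth factor (VEGF) acts on them through the receptors encoded by Kdr and Flt1, and angiopoietins act through Tek, with Tie1 as its partner. The capillaries of the pancreas, like those of other glands, are fenestrated, and the diaphragms of these pores are built from the product of Plvap. Pancreatic tumors are known for a dense stroma and sparse vessels.

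Values are rlog values, which are read counts put on the log2 scale and corrected for library size by the authors. A difference of 1 is a doubling on this scale. As rlog shrinks differences of genes with few reads, it can stand for a larger change in counts there. Differences between groups were tested with limma over all 15047 genes, and a gene was called when its Benjamini-Hochberg adjusted p-value was under 0.05. Read depth is unknown here, so the error given is that between mice. In whole tissue, fewer endothelial cells and less RNA per endothelial cell cannot be told apart.

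No difference of an endothelial gene between lean and obese pancreas passed the test. None of the 10 was called between HFD and LFD, where 0.0% of all genes were called, nor between ob/ob and LFD (0.0%), ob/ob and HFD (0.0%), or the mean of the obese groups and LFD (0.0%). Before adjustment, 1 of the 10 genes passed a p-value of 0.05 in the comparison of HFD and LFD, Vwf, which was higher in HFD, whereas 11.5% of all genes were higher and 8.35% lower at that threshold. This count was 0 without the variance trend, after centring on the median or quantile normalization, with the replicate block or the acinar covariate, and without LFD replicate 2, LFD replicate 3, HFD replicate 2 or HFD replicate 3, and it was 3 with sample weights. Between ob/ob and LFD the count was 0 of 10 beside 18.8% of all genes (11.6% higher and 7.18% lower), and between ob/ob and HFD it was 0 of 10 beside 3.91%. For the mean of the obese groups against LFD it was 0 of 10 beside 14.5% of all genes higher and 10.9% lower, of which 57.2% were higher, or 46.4% with each mouse centred on its median. These counts also moved with single mice. For the obese groups the count was 1 without LFD replicate 1 or HFD replicate 1. Between ob/ob and HFD it was 1 without LFD replicate 3, and between ob/ob and LFD it moved when either ob/ob mouse was left out. The median difference of the 10 genes was 0.21 between HFD and LFD, with 7 above and 3 below 0, and 0.12 between ob/ob and LFD, with 6 above and 4 below 0. The medians of all genes were 0.03 and 0.04. The size of the difference, whatever its sign, had a median of 0.31 and 0.28 for the 10 genes and of 0.34 and 0.39 for all genes. These comparisons share the LFD mice, so they are not independent of each other.

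**Figure D1:**
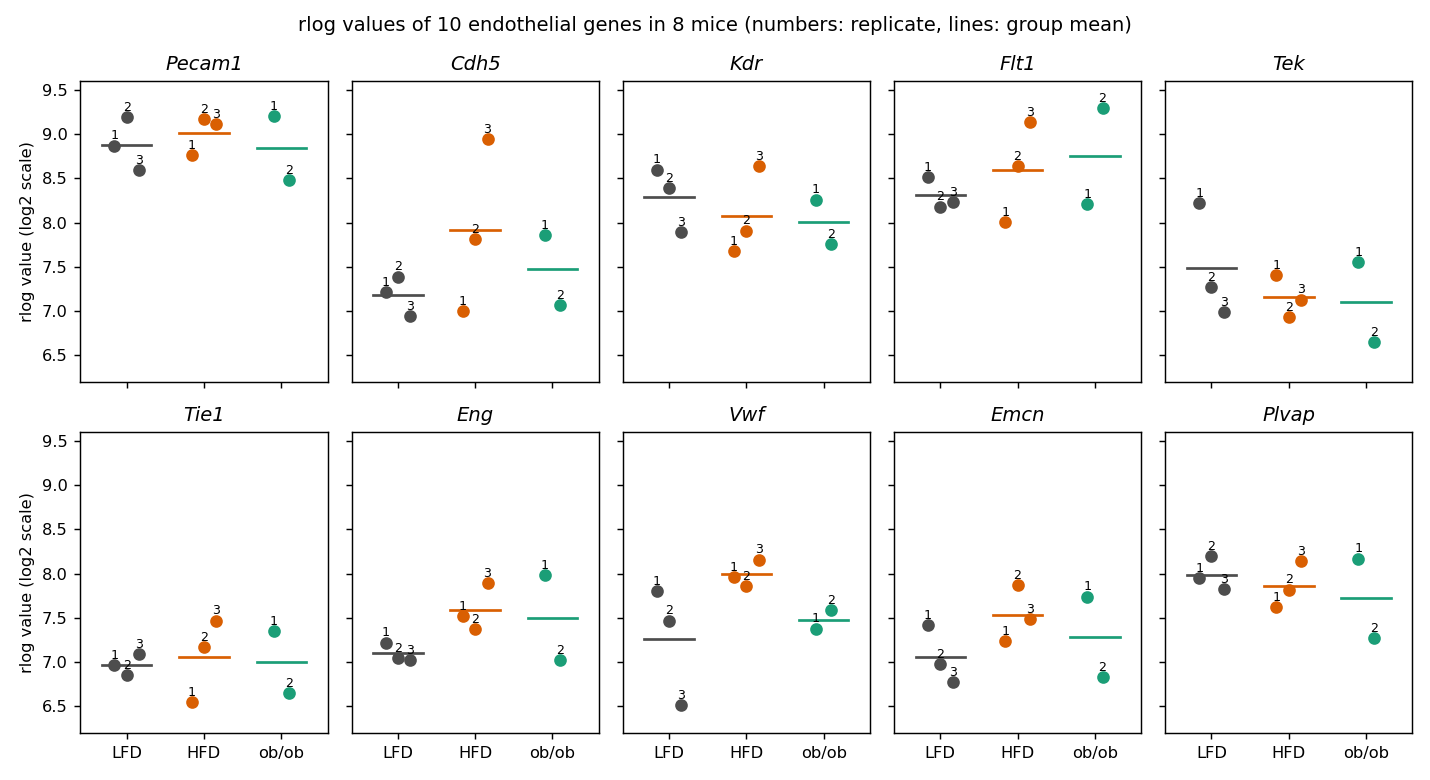
Each panel shows the rlog value (log2 scale) of 1 endothelial gene in 3 LFD, 3 HFD and 2 ob/ob mice, with replicate numbers beside the points and a line at each group mean. All 3 HFD mice lie above all LFD mice for Eng and Vwf, and the groups overlap for the other genes between HFD and LFD.

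Pecam1 encodes the adhesion protein CD31, a general marker of the endothelium (chromosome 11 of GRCm38, 106654217 to 106750628, reverse strand, Gencode M21). Its rlog value was 8.87, 9.19 and 8.59 in LFD, 8.76, 9.17 and 9.11 in HFD, and 9.20 and 8.48 in ob/ob mice, given here and below in the order of their replicate numbers. The ob/ob mice held both the highest and the lowest of the 8 values, and all groups overlapped. The difference was 0.13 between HFD and LFD (95% interval -0.43 to 0.69, adjusted p = 0.781 with limma) and -0.04 between ob/ob and LFD (-0.66 to 0.58, adjusted p = 0.945). Cdh5 encodes the cadherin of endothelial junctions (chromosome 8, 104101625 to 104144511, forward strand). Its value was 7.21, 7.39 and 6.94 in LFD, 7.00, 7.81 and 8.94 in HFD, and 7.86 and 7.07 in ob/ob. HFD replicate 3 stood above every other mouse and HFD replicate 1 lay within the LFD range, so that Cdh5 had the widest range of the 10 genes over the 8 mice, 2.0. The difference between HFD and LFD was 0.74 (standard error 0.45, 95% interval -0.30 to 1.77, adjusted p = 0.376 with limma), and it lay between 0.22 and 1.19 when single mice were left out. Between ob/ob and LFD it was 0.29 (95% interval -0.87 to 1.44, adjusted p = 0.766).

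Of the VEGF receptors, Kdr encodes VEGFR2, the main signalling receptor of VEGF-A (chromosome 5, 75932827 to 75978458, reverse strand). Its rlog value was 8.60, 8.39 and 7.89 in LFD, 7.68, 7.91 and 8.64 in HFD, and 8.26 and 7.76 in ob/ob. The groups overlapped, with HFD replicate 1 lowest and HFD replicate 3 highest. LFD mice averaged 8.29 ± 0.37 (SD, n = 3), HFD mice 8.08 ± 0.50 (SD, n = 3) and ob/ob mice 8.01 ± 0.35 (SD, n = 2), differences from LFD of -0.22 (95% interval -0.90 to 0.47) and -0.28 (-1.05 to 0.48). Flt1 encodes VEGFR1, which binds VEGF tightly and also has a soluble form that traps it (chromosome 5, 147561604 to 147726011, reverse strand). Its value was 8.51, 8.18 and 8.23 in LFD, 8.01, 8.64 and 9.14 in HFD, and 8.21 and 9.29 in ob/ob. HFD replicate 3 and ob/ob replicate 2 were the highest mice and HFD replicate 1 the lowest. The difference from LFD was 0.29 for HFD (95% interval -0.49 to 1.08, adjusted p = 0.644 with limma) and 0.45 for ob/ob (-0.43 to 1.33, adjusted p = 0.515). The values are summed over the transcripts of a gene, so membrane and soluble Flt1 were not separated.

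The angiopoietin receptor Tek, also named TIE2 (chromosome 4, 94739289 to 94874976, forward strand), was at 8.22, 7.27 and 6.99 in LFD, 7.41, 6.93 and 7.13 in HFD, and 7.55 and 6.65 in ob/ob. LFD replicate 1 was the highest of all mice and ob/ob replicate 2 the lowest. Tek had the lowest difference from LFD of the 10 genes in both models, -0.33 in HFD (95% interval -1.16 to 0.49) and -0.39 in ob/ob (-1.32 to 0.53), and without LFD replicate 1 the difference in HFD was 0.03. Its partner Tie1, an orphan receptor that modulates TIE2 signalling (chromosome 4, 118471191 to 118490061, reverse strand), was at 6.97, 6.85 and 7.09 in LFD, 6.55, 7.17 and 7.47 in HFD, and 7.35 and 6.65 in ob/ob. The LFD mice lay within those of both obese groups. The differences of Tie1 from LFD were 0.09 in HFD (95% interval -0.57 to 0.76) and 0.03 in ob/ob (-0.71 to 0.77), the latter turning to -0.06 with each mouse centred on its median and to -0.08 with quantile normalization.

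Promoters are shown for Kdr, Flt1 and Tek, a choice that used their values, as Flt1 varied over the mice unlike Kdr and Tek. Whether the promoters have a part in this was not tested. The ETS factors that bind endothelial promoters recognise a GGAA core. The sequences are the 250 bases before the RefSeq start site, from RefSeq on GRCm38.p6, written 5′ to 3′ on the strand of the gene, and 6 of the 10 genes had an entry in the promoter sequences used. Capitals mark CAGGAA or CCGGAA on either strand, which 35.1% of 32851 mouse promoter windows of the same length held (25.7% CAGGAA and 12.0% CCGGAA).
Kdr (chr5:75978456-75978705, reverse strand): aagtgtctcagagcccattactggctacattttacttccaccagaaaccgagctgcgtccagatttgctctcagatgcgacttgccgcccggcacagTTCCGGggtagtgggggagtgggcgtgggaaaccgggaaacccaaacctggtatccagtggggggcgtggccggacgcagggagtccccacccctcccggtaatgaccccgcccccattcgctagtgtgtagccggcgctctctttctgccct
Flt1 (chr5:147726012-147726261, reverse strand): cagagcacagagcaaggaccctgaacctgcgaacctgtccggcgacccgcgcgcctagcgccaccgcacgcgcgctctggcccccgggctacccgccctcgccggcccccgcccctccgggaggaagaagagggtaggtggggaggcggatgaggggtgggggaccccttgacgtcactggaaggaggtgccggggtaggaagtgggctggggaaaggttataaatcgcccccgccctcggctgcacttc
Tek (chr4:94739039-94739288, forward strand): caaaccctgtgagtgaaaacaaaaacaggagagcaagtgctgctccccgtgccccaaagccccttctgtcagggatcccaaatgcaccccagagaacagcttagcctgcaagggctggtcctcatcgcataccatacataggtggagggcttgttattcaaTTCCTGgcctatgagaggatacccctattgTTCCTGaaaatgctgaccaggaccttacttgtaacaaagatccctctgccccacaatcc
The Kdr window held 1 match to CCGGAA and the Tek window 2 matches to CAGGAA, all read on the opposite strand. The Flt1 window held neither of these 6-base forms, but GGAA itself occurs in it. The GGAA core outside the 2 forms was not marked, and it is found in the Kdr window too. The Flt1 window had 1 TATAAA, found in 12.4% of all windows, and 3 matches to GGGCGG, found in 32.7%, of which the Kdr window held 2 and the Tek window 0. Of the 6 genes with an entry, 4 held either ETS form, and Flt1 and Eng held neither. A match of letters is a description and was not tested for binding.

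Eng encodes endoglin, a co-receptor for ligands of the TGF-beta family (chromosome 2, 32646595 to 32682669, forward strand). Its rlog value was 7.22, 7.05 and 7.02 in LFD, 7.52, 7.37 and 7.89 in HFD, and 7.98 and 7.02 in ob/ob. All HFD mice were above all LFD mice, and ob/ob replicate 1 held the highest value while ob/ob replicate 2 lay among the LFD mice. The difference between HFD and LFD was 0.50 (standard error 0.27, 95% interval -0.13 to 1.12, adjusted p = 0.331 with limma), and it lay between 0.35 and 0.61 when single mice were left out. Eng was above all LFD mice in 4 of the 5 obese mice, and the comparison of the 5 obese with the 3 LFD mice gave a p-value of 0.107 (two-sided exact permutation test, in which 0.0357 is the smallest p possible). This was the lowest exact p-value of the 10 genes, the others lying between 0.214 and 0.821.

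Vwf encodes von Willebrand factor, a clotting protein stored by endothelial cells and platelets (chromosome 6, 125546774 to 125686679, forward strand). Its rlog value was 7.80, 7.47 and 6.51 in LFD, 7.96, 7.86 and 8.16 in HFD, and 7.38 and 7.59 in ob/ob. Every HFD mouse was above every LFD and every ob/ob mouse, and LFD replicate 3 was far below the others. The difference between HFD and LFD was 0.73 (standard error 0.32, 95% interval 0.01 to 1.45, unadjusted p = 0.0468, adjusted p = 0.248 with limma). It was 0.36 without LFD replicate 3, and without HFD replicate 1 the unadjusted p-value of limma was 0.0696. Between ob/ob and HFD the difference was -0.51 (95% interval -1.32 to 0.29, adjusted p = 1.00). Groups without overlap were found for 2 of the 10 genes between HFD and LFD, both higher in HFD, beside 12.9% of all genes higher and 12.3% lower. Between ob/ob and HFD this held for Vwf alone, lower in ob/ob, beside 5.42% of all genes lower, and between ob/ob and LFD for 0 of 10 beside 24.1% higher and 21.8% lower. Of 8 platelet and megakaryocyte genes, 4 were in the deposited values (Pf4, Ppbp, Itga2b and Clec1b), and their mean was 4.36 to 4.38 in LFD, 4.64 to 5.36 in HFD and 4.73 and 5.20 in ob/ob. Their part in the Vwf values was not tested.

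Emcn encodes endomucin, a sialomucin of capillaries and veins (chromosome 3, 137341067 to 137432185, forward strand), and Plvap the protein of fenestral diaphragms (chromosome 8, 71497765 to 71511752, reverse strand). Emcn was at 7.42, 6.98 and 6.77 in LFD, 7.24, 7.87 and 7.49 in HFD, and 7.74 and 6.83 in ob/ob, and only HFD replicate 1 kept HFD from lying above all LFD mice. The difference between HFD and LFD was 0.48 (95% interval -0.21 to 1.17, adjusted p = 0.388 with limma). Plvap was at 7.95, 8.20 and 7.83 in LFD, 7.62, 7.82 and 8.14 in HFD, and 8.17 and 7.27 in ob/ob. The groups overlapped, and ob/ob replicate 2 was the lowest mouse. Its differences from LFD were -0.13 in HFD (95% interval -0.73 to 0.47) and -0.28 in ob/ob (-0.95 to 0.40).

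**Figure D2:**
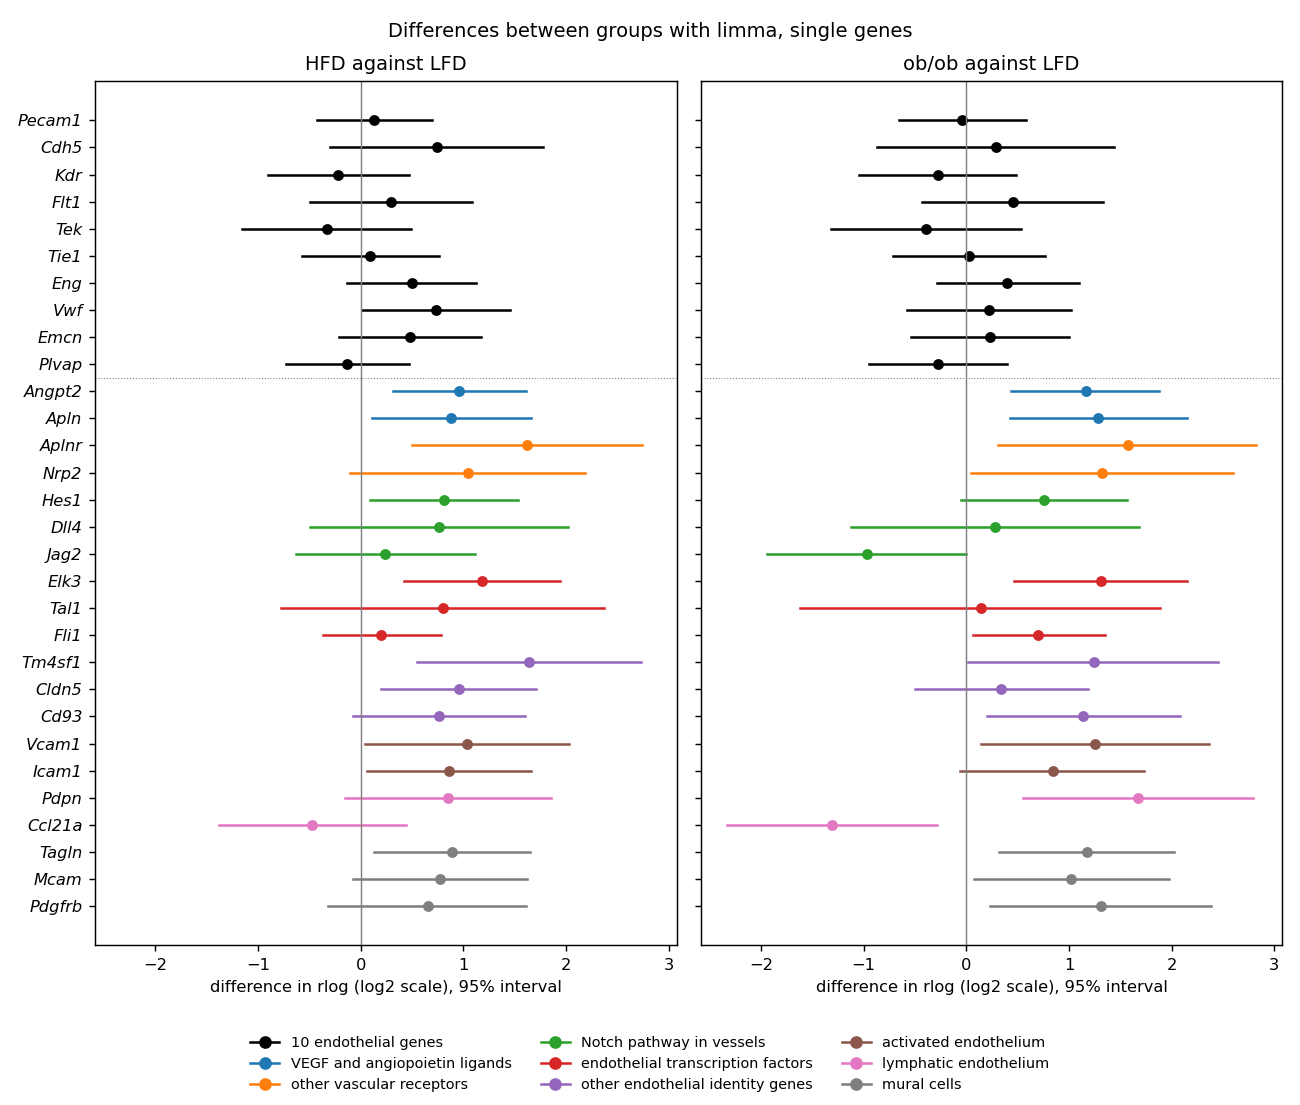
Points are differences in rlog (log2 scale) of HFD (left) and ob/ob (right) from LFD, with 95% intervals from limma, for the 10 endothelial genes above the dotted line and for 20 other vascular genes below it, coloured by list. The differences of the 10 genes lie between -0.39 and 0.74, and those of the other genes between -1.31 and 1.67.

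Between the obesity models, 9 of the 10 genes had a lower mean in ob/ob than in HFD, with a median difference of -0.12, where all genes had 0.01. The exception was Flt1, with 0.16 (95% interval -0.72 to 1.04). This direction rested on single mice. The median difference was 0.20 without ob/ob replicate 2 and -0.52 without ob/ob replicate 1, and 0.41 when HFD replicate 3 and ob/ob replicate 2 were left out together.

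Within groups the mice differed in most of the genes at once. The mean rlog value of the 10 genes was 7.88, 7.70 and 7.39 in LFD, 7.58, 7.85 and 8.21 in HFD, and 7.97 and 7.46 in ob/ob. The group means were 7.65 ± 0.25 (SD, n = 3), 7.88 ± 0.32 (SD, n = 3) and 7.72 ± 0.36 (SD, n = 2), so the groups were closer to each other than the mice within them. The ob/ob replicate 1 was above replicate 2 in 8 of 10 genes, Flt1 and Vwf being the exceptions. HFD replicate 3 was above HFD replicate 1 in 9 genes and LFD replicate 1 above LFD replicate 3 in 9. HFD replicate 3 was the highest of the 8 mice for 4 genes, and LFD replicate 3 the lowest for 4. The range over the 8 mice had a median of 1.03 over the 10 genes and of 1.12 over all genes.

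To ask whether single genes differed beyond what the 10 had in common, the mean of the 10 was subtracted in each mouse and the test repeated. None of the 10 was called between HFD and LFD (0.16% of all genes), ob/ob and LFD (0.16%), ob/ob and HFD (0.0%), or the obese groups and LFD (1.65%), and before adjustment 0 of 10 passed 0.05 in each, beside 15.2%, 13.7%, 3.14% and 18.7% of all genes. The difference relative to this mean was 0.51 for Cdh5 (standard error 0.39) and 0.50 for Vwf (0.39) in HFD against LFD. At the other end were Tek with -0.56 (0.40) and Kdr with -0.44 (0.35). The mean that is subtracted holds the gene itself, which makes these values smaller.

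The genes of the vessel wall varied together only in part. Over the 8 mice the 45 pairs had a median Pearson r of 0.45, 19 pairs were above 0.5 and 6 below 0. The highest was that of Pecam1 and Plvap, 0.82, and the lowest that of Flt1 and Tek, -0.44. Against the mean of the other 9 genes, Cdh5 had the highest r, 0.82, followed by Pecam1 with 0.72, Emcn with 0.71 and Eng with 0.70. Flt1 and Tek stood apart with 0.07 and 0.20. The receptors did not pair by family, as Kdr and Flt1 had an r of 0.13 and Tek and Tie1 of 0.06. These correlations are a description over 8 mice of 3 groups, and the pairs share library, tissue composition and group.

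**Figure D3:**
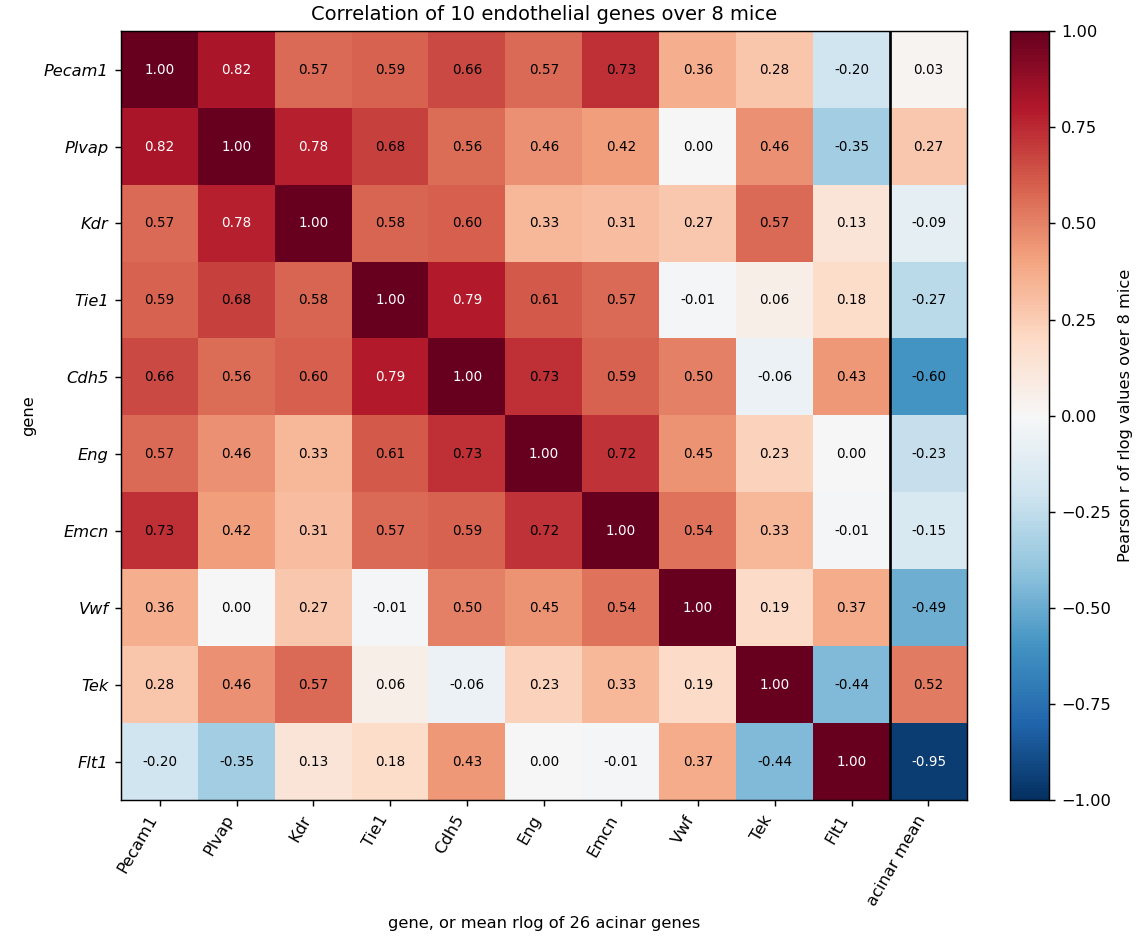
Each cell holds the Pearson r of rlog values over 8 mice between 2 endothelial genes, and the last column that with the mean rlog of 26 acinar genes. Flt1 has an r of -0.95 with the acinar mean, and the other 9 genes lie between -0.60 and 0.52.

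Acinar genes differed widely between mice, and Flt1 was high where they were low. All 26 acinar genes looked up, which encode digestive enzymes and other acinar products, were in the deposited values, and their mean rlog value was 17.44 to 17.97 in LFD, 13.73 to 17.77 in HFD, and 17.03 and 14.05 in ob/ob. HFD replicate 3 and ob/ob replicate 2 had the lowest acinar means and the highest Flt1 values. The Pearson r with the acinar mean over the 8 mice was -0.95 for Flt1, -0.60 for Cdh5, -0.49 for Vwf, 0.52 for Tek and 0.03 for Pecam1. The value of Flt1 is the most extreme of the 10. Neither its range without single mice nor the share of all genes with such an r was computed, so it is not shown to be particular to Flt1. With the acinar mean as a covariate, the difference of Flt1 from LFD was -0.33 in HFD and -0.22 in ob/ob, and the median of the 10 genes was 0.07 in HFD and -0.11 in ob/ob. HFD replicate 3 and ob/ob replicate 2 were also left out together, a choice made after the values were seen. Without the covariate, the median difference of the 10 genes from LFD was then 0.05 in HFD and 0.25 in ob/ob. A single ob/ob mouse was left, so calls at this setting cannot tell whether the 10 genes differ.

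Marker lists of other cells were measured in the same mice. Fibroblast genes (10 of 10 measured) had means of 9.17 to 9.59 in LFD, 10.04 to 10.54 in HFD, and 10.27 and 11.02 in ob/ob, and macrophage genes (10 of 10) of 8.81 to 9.24, 9.53 to 10.61, and 10.36 and 11.06. Duct genes (10 of 10) had 9.38 to 9.65, 9.68 to 10.37, and 9.73 and 9.05, and islet genes (10 of 10) 8.99 to 9.95, 8.44 to 9.22, and 10.73 and 9.71. Adipocyte genes (8 of 8) had 6.94 to 7.52, 6.80 to 7.12, and 7.41 and 6.28, and lymphocyte genes (9 of 10) 3.54 to 5.65, 3.96 to 4.58, and 4.13 and 4.37. The lowest of all deposited values was 0.466, and whether a marker had reads in each mouse is not known, as read counts were not used. The part of these cells in the endothelial values was not tested.

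**Figure D4:**
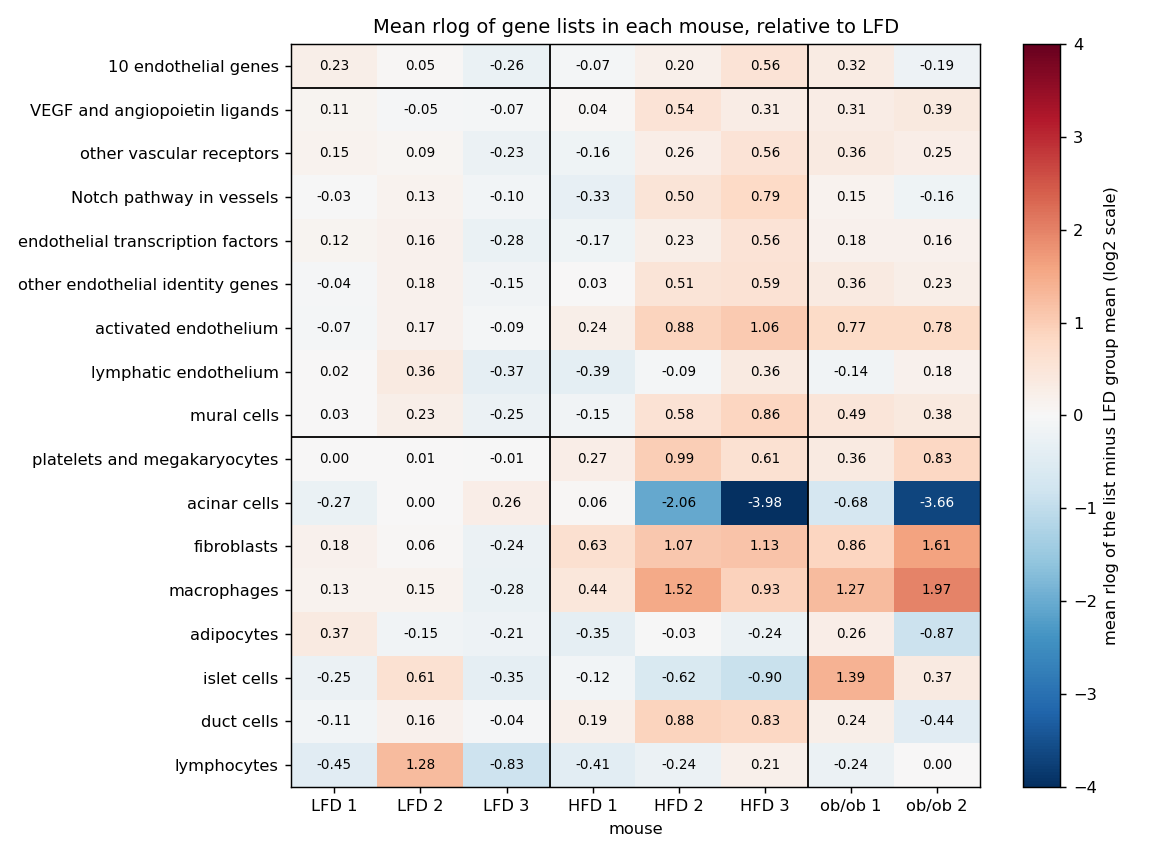
Cells give the mean rlog value of each gene list in each mouse minus its mean in LFD (log2 scale), with the 10 endothelial genes at the top, other vascular lists in the middle and other cell types below. The 10 endothelial genes lie between -0.26 and 0.56, and the acinar list is lowest in HFD replicate 3 (-3.98) and ob/ob replicate 2 (-3.66). The activated endothelium list is above its LFD mean in all 5 obese mice. So are the VEGF and angiopoietin ligand, other endothelial identity, platelet, fibroblast and macrophage lists. HFD replicate 1 is only 0.04 above for the VEGF and angiopoietin ligand list, below LFD replicate 1 (0.11). For the other endothelial identity list it is 0.03 above, below LFD replicate 2 (0.18).

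Expression per kilobase put Pecam1 first and Vwf last. To compare genes of different length, the log2 of the longest coding transcript in kilobases was subtracted from the rlog value. On this scale the level over the 8 mice was 7.14 ± 0.29 for Pecam1 and 6.88 ± 0.32 for Plvap (SD, n = 8). Emcn was at 5.92 ± 0.41, Flt1 at 5.74 ± 0.47, Eng at 5.61 ± 0.38, Kdr at 5.58 ± 0.38 and Cdh5 at 5.53 ± 0.67. Tek at 5.05 ± 0.48, Tie1 at 4.93 ± 0.32 and Vwf at 4.45 ± 0.51 closed the order. Only the step from Plvap to Emcn, 0.96, was wider than the SD of both of its genes. The genes were measured in the same mice, so these SDs between mice do not measure the spread of a step. Steps within mice were not tested.

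The genes around the receptors were described by 8 lists of 85 measured genes in all. At the adjusted threshold, 0 of 85 were called in each of the 4 comparisons. Before adjustment, 14 were higher and 1 lower between HFD and LFD, beside 11.5% and 8.35% of all genes, and 17 were higher and 2 lower between ob/ob and LFD, beside 11.6% and 7.18%. The median difference of the 85 genes was 0.27 in HFD and 0.13 in ob/ob. In 7 of the 85, all obese mice of both models lay above all LFD mice, beside 1414 of all 15047 genes. In 0 of the 85 they all lay below, beside 1362 of all genes. The single genes named below were picked for the largest differences from LFD in their lists.

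Of the 10 VEGF and angiopoietin ligands, 8 had a higher mean in HFD than in LFD and 5 in ob/ob, with medians of 0.33 and 0.24. Angpt2 encodes the angiopoietin released by remodelling endothelium. Its rlog value was 5.19, 5.46 and 4.76 in LFD, 5.70, 6.32 and 6.27 in HFD, and 6.25 and 6.34 in ob/ob. Each of the 5 obese mice exceeded each LFD mouse, a difference of 0.96 in HFD (standard error 0.28, adjusted p = 0.182) and 1.16 in ob/ob (0.32, adjusted p = 0.194 with limma). Apln, the ligand of the apelin receptor, was at 5.05, 4.45 and 4.96 in LFD, 5.10, 6.09 and 5.91 in HFD, and 5.86 and 6.34 in ob/ob, again without overlap. The differences of Apln were 0.88 (standard error 0.34) and 1.28 (0.38). Of the 12 other vascular receptors, 7 had a higher mean in HFD and 8 in ob/ob, and the medians were 0.11 in each. Aplnr, the receptor of apelin, was at 5.79, 4.87 and 5.17 in LFD, 5.83, 7.25 and 7.63 in HFD, and 7.29 and 6.40 in ob/ob. The groups did not overlap, with HFD replicate 1 just above LFD replicate 1, and the differences were 1.62 (standard error 0.49, adjusted p = 0.187) and 1.57 (0.55, adjusted p = 0.223 with limma). Nrp2, a co-receptor of VEGF-C and semaphorins, had differences of 1.04 (standard error 0.50) and 1.32 (0.56).

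In the Notch list, 7 of 9 genes had a higher mean in HFD and 4 of 9 in ob/ob, with medians of 0.36 and -0.01. Dll4, the Notch ligand of arterial and tip cells, was at 7.15 in HFD replicate 3 and between 4.76 and 5.89 in the other 7 mice. Its difference between HFD and LFD was 0.76 (standard error 0.55). Jag2, another Notch ligand, was at 5.09, 6.09 and 5.84 in LFD, 5.24, 6.09 and 6.42 in HFD, and 4.76 and 4.65 in ob/ob. Both ob/ob mice were below all other mice, and the difference was -0.97 from LFD (standard error 0.43, adjusted p = 0.267) and -1.21 from HFD (0.43, adjusted p = 1.00 with limma). Hes1, a target of Notch, differed by 0.81 in HFD (standard error 0.31) and 0.76 in ob/ob (0.35).

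Of 15 endothelial transcription factors, 14 were measured, of which 10 had a higher mean in HFD and 9 in ob/ob (medians 0.23 and 0.09). Elk3, an ETS factor, was at 7.34, 7.45 and 6.80 in LFD, 7.82, 8.61 and 8.70 in HFD, and 8.03 and 8.97 in ob/ob, with the 5 obese mice above the highest LFD mouse. Its differences were 1.18 (standard error 0.33, adjusted p = 0.18) and 1.31 (0.37, adjusted p = 0.20 with limma). Fli1, also an ETS factor, differed by 0.20 in HFD (standard error 0.25) and 0.70 in ob/ob (0.28), and Tal1 by 0.80 (0.69) and 0.14 (0.77). Among 17 other endothelial genes, 15 had a higher mean in HFD and 11 in ob/ob (medians 0.20 and 0.12). Tm4sf1, a tetraspanin-like protein of tumor endothelium that tumor cells also make, was at 7.89, 8.64 and 8.57 in LFD, 9.13, 10.33 and 10.56 in HFD, and 8.83 and 10.38 in ob/ob. It did not overlap between obese and LFD mice, and differed by 1.64 (standard error 0.48, adjusted p = 0.181) and 1.24 (0.53, adjusted p = 0.262 with limma). Cldn5, a tight junction claudin, differed by 0.96 in HFD (standard error 0.33) and 0.34 in ob/ob (0.37), and Cd93, a receptor of endothelium and myeloid cells, by 0.76 (0.37) and 1.14 (0.41).

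The activated endothelium list (Sele, Selp, Icam1, Vcam1 and Ackr1) had the highest medians of the 8, 0.79 in HFD and 0.71 in ob/ob. In each model 5 of 5 genes were above 0. The mean of the list in LFD was 5.0, with Vcam1 at 8.52 and Icam1 at 7.14, so its other genes were low on average. Outside the 8 vascular lists, the medians were higher for fibroblast genes (1.01 and 1.0) and macrophage genes (1.0 and 1.75). Vcam1, which binds leukocytes, was at 8.07, 9.01 and 8.47 in LFD, 8.94, 10.01 and 9.70 in HFD, and 9.0 and 10.53 in ob/ob. LFD replicate 2 overlapped with both obese groups, and the differences were 1.03 (standard error 0.44, adjusted p = 0.242) and 1.25 (0.49, adjusted p = 0.242 with limma). Icam1 differed by 0.86 (standard error 0.35) and 0.84 (0.39), and both adhesion genes are made by fibroblasts and macrophages too. The 6 lymphatic genes had medians of -0.24 and -0.21. Among them Ccl21a, a chemokine of lymphatic vessels, differed by -0.47 in HFD (standard error 0.40) and -1.31 in ob/ob (0.45, adjusted p = 0.22 with limma), where both mice were below all others, and its near-identical copies make this value uncertain. Pdpn, which fibroblasts also make, differed by 0.85 (standard error 0.44) and 1.67 (0.49). Of 12 mural cell genes, 11 had a higher mean in HFD and 8 in ob/ob (medians 0.42 and 0.31), with Tagln at 0.89 (standard error 0.33) and 1.17 (0.37), Mcam at 0.77 (0.37) and 1.02 (0.42), and Pdgfrb at 0.65 (0.42) and 1.31 (0.47). The part of fibroblasts in the values of the mural genes was not tested. Several of the ob/ob differences rested on ob/ob replicate 2, with Pdpn at 7.56 in ob/ob replicate 1 and 9.40 in replicate 2. Without replicate 2 the difference from LFD was 0.75 for Pdpn, 0.54 for Nrp2, 0.46 for Tm4sf1, 0.48 for Vcam1 and 0.61 for Pdgfrb. With the acinar mean as a covariate, the difference between HFD and LFD was 0.18 for Nrp2, 0.16 for Pdpn and 0.20 for Cd93. Cldn5 (0.99) and Tagln (0.79) changed less with this covariate.

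Calls of vascular genes changed with the mice that were kept and with their weights. Without HFD replicate 1, 18.7% of all genes were called between HFD and LFD, 10.8% of all being higher in HFD. Of the 10 endothelial genes 0 were called, with the lowest adjusted p-value at 0.0569 for Cdh5 (difference 1.19, standard error 0.37), and their median difference was 0.44. Of the 85 genes of the other lists, 13 rose in HFD and 0 fell, 15.3% in all. They were Angpt2 (1.16), Apln (1.18), Aplnr (2.16), Hes1 (1.17), Elk3 (1.45), Cd93 (1.17), Tm4sf1 (2.08) and Tagln (1.16), and also Icam1, Mcam, Jag1, Ecscr and Acta2. Between ob/ob and LFD, a comparison that shares the estimate of the spread, 0.591% of all genes were then called, with 0 of the 10 endothelial genes and 0 of the 85. Between the obese groups and LFD 22.1% were called, 12.8% of all being higher, with 0 of 10 and 18 of 85. Leaving out ob/ob replicate 1 instead, which leaves 1 ob/ob mouse whose spread is taken from the other groups, gave 0.405% of all genes for ob/ob against LFD and 3.16% for the obese groups against LFD, with 0 of the 10 endothelial genes, Pdpn of the 85 in the first and Elk3 and Pdpn in the second. With sample weights over all 8 mice, whose estimation stopped before it converged, 28 of the 85 were called higher and 3 lower between HFD and LFD, beside 44.2% of all genes, and 20 higher and 0 lower between the obese groups and LFD, beside 28.5%.

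Outside the 10, the genes closest in pattern were ranked by the Pearson r of their rlog values with the mean of the 10 over the 8 mice. The first was Pcdh12, an endothelial protocadherin, with r = 0.975 (0.958 to 0.992 when single mice were left out). Draxin, an axon guidance factor, followed with 0.974 at a low level, 2.64 on average. The next were Col23a1, a membrane collagen (0.940), Trabd2b (0.937), Dgat2, an enzyme of triglyceride synthesis (0.931), Slc2a4, the insulin-responsive glucose transporter (0.923), and Pparg, the nuclear receptor of adipocyte differentiation (0.918). Svep1 (0.913), Selp, the selectin of activated endothelium (0.911), and Ttc22 (0.909) completed the first 10. An r of at least 0.9 was found for 15 of 15037 genes, and the median r of all 15037 was 0.01. The genes named were picked as the highest of 15037 over only 8 mice. Their r, and its range without single mice, are therefore no independent support for a shared pattern. How many genes would reach 0.9 by chance was not tested. The median r was 0.63 for mural genes, 0.62 for duct genes, 0.53 for other endothelial genes, 0.49 for adipocyte genes and -0.36 for acinar genes. The mice share group and tissue composition in these values.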

How the data were processed

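RNA-Seq of pancreas was made from 8 mice, grouped by the diet or genotype and replicate number in the sample labels. The authors extracted total RNA with Trizol, sequenced paired-end reads of 150 bp, checked them with FastQC, quantified Gencode M18 transcripts (GRCm38.p6) with Salmon 0.11.3, summed them per gene with tximport, and deposited values from the rlog function of DESeq2 1.22.2, which are on a log2 scale. The filter that left 15047 genes, and whether rlog used the groups, are not given in the sources used here. Rlog shrinks differences of genes with few reads. Replicates are different animals. The depth is unknown, as read counts were not used here.

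Groups were compared in R 4.3.3 by limma 3.58.1 in 1 model of 3 group means over all 8 mice, with the trend of the variance on the mean, two-sided tests and Benjamini-Hochberg adjustment over all genes. The exact permutation tests used SciPy 1.17.1. The study tested counts with DESeq2, which rlog values do not allow. The 10 genes and the other lists were chosen with earlier results of these data known. Named from each vascular list were the 2 genes with the largest difference from LFD in each model and any called gene, and beyond the list of 10 the 10 genes with the highest correlation to their mean. The genes singled out without HFD replicate 1 (Jag1, Ecscr and Acta2) were named after their values were seen. Gene positions and transcript lengths are those of Gencode M21 on GRCm38. On simulated data of the same size for HFD against LFD (15047 genes, 200 changed), 34% of genes changed by 4 residual SDs and 98% of those changed by 8 were called, with 11 false calls. Each result was recomputed without the variance trend, from the compared groups alone, over genes with a mean rlog of at least 5, after centring on the median or quantile normalization, with sample weights, with a replicate block, with the acinar mean as a covariate, and without single mice.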

Additional observations from a re-analysis of the deposited data

How the results depend on the processing

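The 10 endothelial genes had no adjusted p-value under 0.05 in any comparison and under any alternative with limma, except for Emcn in HFD against LFD with sample weights (difference 0.77, adjusted p = 0.0109), which makes 1 of 10. With these weights, whose estimation stopped before convergence, 6656 genes were called for HFD against LFD and 4286 for the obese groups against LFD. On leaving out each mouse in turn the 10 genes kept 0 calls, while the calls over all genes went from 0 to 2812 for HFD against LFD and from 0 to 3326 for the obese groups, both highest without HFD replicate 1, and from 0 to 89 for ob/ob against LFD. From the compared groups alone, 1 gene was called for HFD against LFD and 38 for ob/ob against LFD. Where a single ob/ob mouse was left, it was assumed to vary like the other mice. The median of the 10 genes lay between 0.05 and 0.44 for HFD against LFD, -0.27 and 0.25 for ob/ob against LFD, -0.52 and 0.20 between the models, and 0.01 and 0.31 for the obese groups against LFD, on leaving out single mice. Without HFD replicate 3 and ob/ob replicate 2 it was 0.41 for ob/ob against HFD. The numbers were not taken to pair the mice, which are different animals, as deviations of same-numbered LFD and HFD mice correlated with r = -0.06, 0.11 and -0.28, those of LFD and ob/ob mice with -0.10 and 0.13, and those of HFD and ob/ob mice with 0.59 and 0.30. With the replicate block 0 of 10 genes were called, the medians were 0.21, 0.11, -0.15 and 0.22 in the order above, and Tie1 turned to 0.07 for ob/ob against HFD. Of 1674 single-gene values under the alternatives, 82 changed sign, and the cause was not tested. With the acinar mean as a covariate the sign turned for Flt1 (-0.33), Tie1 (-0.03), Jag2 (-0.08), Tal1 (-0.17), Fli1 (-0.04) and Pdgfrb (-0.10) in HFD against LFD. The same covariate gave Pecam1 0.01, Cdh5 -0.19, Flt1 -0.22, Tie1 -0.11, Dll4 -0.31 and Tal1 -0.91 in ob/ob against LFD, and Flt1 -0.28, Tie1 -0.07, Dll4 -0.04 and Tal1 -0.54 for the obese groups. Without HFD replicate 3 and ob/ob replicate 2, an alternative chosen after seeing the data, the sign turned for Tie1 (-0.11), Jag2 (-0.01) and Tal1 (-0.06) in HFD against LFD, for Pecam1 (0.32), Flt1 (-0.09), Tek (0.05) and Plvap (0.17) in ob/ob against LFD, and for Flt1 (-0.03) in the obese groups. Between ob/ob and HFD it left Pecam1 at 0.24, Cdh5 at 0.46, Kdr at 0.47, Flt1 at -0.11, Tek at 0.37, Tie1 at 0.48, Eng at 0.53, Emcn at 0.18 and Plvap at 0.45. Centring on the median gave Tie1 -0.06 in ob/ob against LFD, and Pecam1 -0.04 and Tie1 -0.03 for the obese groups. Quantile normalization gave Tie1 -0.08 and Tal1 -0.05 in ob/ob against LFD and Tie1 -0.03 for the obese groups, and sample weights gave Kdr 0.07, Tek 0.14 and Eng 0.10 in ob/ob against HFD. Signs that turned on leaving out single mice in HFD against LFD were those of Pecam1 (-0.02 to 0.28), Tek (-0.59 to 0.03), Tie1 (-0.11 to 0.35), Jag2 (-0.05 to 0.58) and Tal1 (-0.06 to 1.47). In ob/ob against LFD these were Pecam1 (-0.40 to 0.32), Cdh5 (-0.11 to 0.68), Flt1 (-0.09 to 0.99), Tek (-0.84 to 0.05), Tie1 (-0.32 to 0.38), Eng (-0.08 to 0.88), Vwf (-0.16 to 0.49), Emcn (-0.23 to 0.68), Plvap (-0.72 to 0.17), Dll4 (-0.17 to 0.72) and Tal1 (-0.09 to 0.42). In ob/ob against HFD they were Pecam1 (-0.53 to 0.19), Cdh5 (-0.91 to 0.06), Kdr (-0.32 to 0.22), Flt1 (-0.38 to 0.70), Tek (-0.51 to 0.39), Tie1 (-0.41 to 0.28), Eng (-0.57 to 0.39), Emcn (-0.71 to 0.20) and Plvap (-0.59 to 0.31), and for the obese groups Pecam1 (-0.14 to 0.23), Tie1 (-0.11 to 0.23) and Plvap (-0.43 to 0.02), with Flt1 reaching 0.64 without ob/ob replicate 1.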
